A study of Drosophila melanogaster with 24 samples.

Results

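Described here are 89 nuclear genes named for the 5 complexes of oxidative phosphorylation in Drosophila melanogaster, out of 17545 genes in the count table. They were taken by name: protein-coding genes whose symbol begins with ND- (complex I, NADH dehydrogenase, 40 genes), Sdh (complex II, succinate dehydrogenase, 8), UQCR or equals Cyt-c1 (complex III, the cytochrome bc1 complex, 10), COX4 to COX8 (complex IV, cytochrome c oxidase, 16) and ATPsyn (complex V, ATP synthase, 15). The rule uses names alone, with no measured value in it. Of the 89, 64 are standard subunits, called core subunits below (34, 4, 7, 8 and 11 for complexes I to V), and 24 carry a name ending in L, L1 or L2, which marks a paralog of a standard subunit. The remaining gene, Sdhaf3, encodes an assembly factor of complex II. The parents of 4 paralogs are named otherwise (levy, cype and sun) and lie outside the rule. Other respiratory chain genes, such as RFeSP and blw, lie outside it as well. Sums, shares and rankings within a complex below therefore cover its core subunits and not the whole complex. ND-MNLL had 0 counts in every library, and its exons lie wholly under CG45089 on the same strand, so 63 core subunits were measured.

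The study exposed flies to methylmercury (MeHg), an organic mercury compound toxic to developing nerve and muscle, and sequenced RNA from indirect flight muscle (IFM, the dorsal longitudinal and dorsoventral muscles together) and from the ventral nerve cord (VNC, the insect counterpart of the spinal cord, cut away from the brain). There were 8 groups of 3 libraries: MeHg adult IFM, control adult IFM, MeHg pupal IFM, control pupal IFM, MeHg adult VNC, control adult VNC, MeHg pupal VNC and control pupal VNC. MeHg larvae ate food holding 5 µM methylmercury chloride from the first larval stage, and control larvae ate food with the solvent alone (0.01% DMSO). Pupal tissue was collected 30 h after the puparium formed. Adults were dissected at the age of 15 days, having been moved to food free of MeHg at eclosion, so the adults compared had fed on clean food as adults. Each library came from 50 animals of both sexes whose tissue was dissected after Methacarn fixation, and total RNA was made into stranded libraries.

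Library totals ran between 12414582 and 39254902 counts. The tissue labels matched their markers. Summed over 15 flight muscle markers, expression was 58844 to 74250 CPM (counts scaled to a library total of 1e6) in MeHg adult IFM, 78481 to 103971 CPM in control adult IFM, 75243 to 96620 CPM in MeHg pupal IFM and 79373 to 92509 CPM in control pupal IFM, against 543 to 1711 CPM in the 12 VNC libraries. Summed over 13 neuron markers, it was 380 to 1772 CPM in IFM and 12205 to 33560 CPM in VNC. Control adult VNC replicate 2 stood apart from its group: 20 of 23 testis and spermatid markers reached 1 CPM in it, against 6 in both of the other control adult VNC libraries. Such markers were not confined to it, since 19 reached 1 CPM in control pupal IFM replicate 2 and 16 in MeHg pupal IFM replicate 2. The summed level of the testis markers was 1196 CPM in control adult VNC replicate 2 and 918 and 769 CPM in the other control adult VNC libraries, a sum dominated by bol, which is also present in VNC. Where leaving out control adult VNC replicate 2 changed a result on the paralogs, that is given beside the result.

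Complexes I to IV form the respiratory chain. Complex I passes electrons from NADH, and complex II those from succinate, to ubiquinone, complex III carries them to cytochrome c, and complex IV hands them to oxygen. Complexes I, III and IV pump protons across the inner mitochondrial membrane, and complex V uses the gradient to make ATP. Indirect flight muscle beats asynchronously at high frequency on aerobic metabolism and is packed with mitochondria, most of which are laid down as the muscle matures. In Drosophila many subunits of mitochondrial proteins have a duplicate gene whose expression is known mainly from the testis. A handful of subunits of complexes I, III, IV and V are made from the mitochondrial genome and are not among the genes described here.

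The share of all transcripts devoted to core subunits differed with tissue and stage, and adult flight muscle stood far above the rest. Levels between genes were compared per exonic length, as TPM (counts per exonic base, scaled to the same total in every library, computed from the deposited counts). Summed over core subunits, the level was 92036 ± 12403 TPM in MeHg adult IFM and 109822 ± 12317 TPM in control adult IFM (mean ± SD, n = 3 here and below), which is 9.20% and 11.0% of all transcripts. It was 29558 ± 2038 TPM in MeHg pupal IFM and 34768 ± 1293 TPM in control pupal IFM. The VNC held less, with 25458 ± 1428 TPM in MeHg adults, 24401 ± 796 TPM in control adults, 12702 ± 689.8 TPM in MeHg pupae and 13223 ± 126 TPM in control pupae. These are shares of the RNA of a dissected tissue, in which fewer cells of a type and less RNA per cell cannot be told apart.

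**Figure D1:**
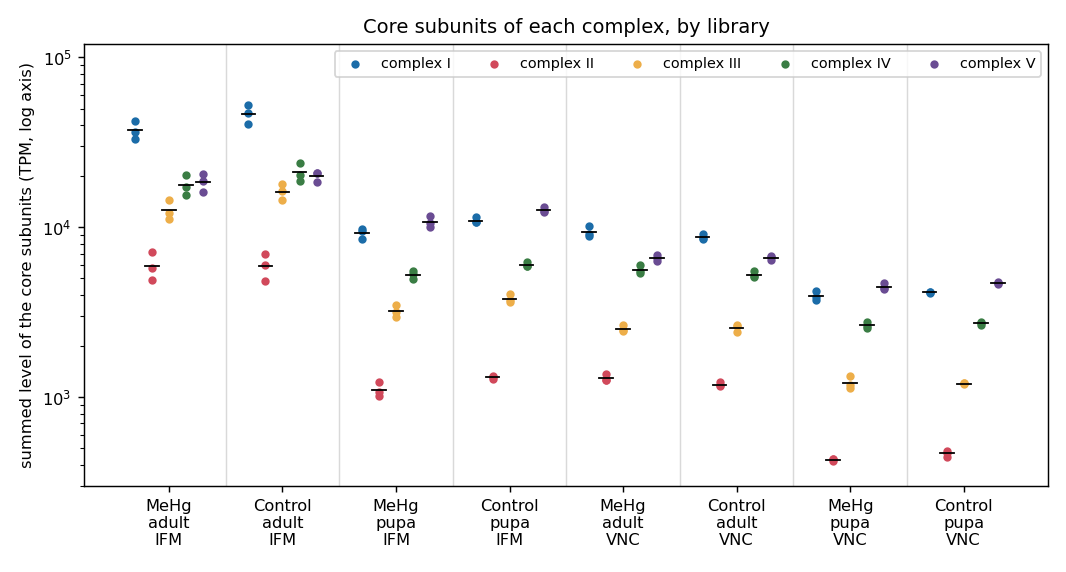
Summed level of the core subunits of each complex (TPM, log axis) in each library, by group, with points for libraries and a black line for the mean of 3. Both adult IFM groups lie highest for all 5 complexes, and the pupal VNC groups lowest.

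The balance between complexes also differed. Complex V held 36.3% of the core sum in MeHg pupal IFM and 36.5% in control pupal IFM, a larger share than complex I, which held 31.3% and 31.5%. In adult IFM complex I led, with 40.4% in MeHg and 42.4% in control adults, and complex V held 20.2% and 18.3%. The VNC showed the same order by stage in a smaller range: complex V held 35.1% in MeHg and 35.5% in control pupae, and 26.0% and 27.1% in MeHg and control adults. Complex IV kept between 17.3% and 22.1% in all 8 groups. Complex II, the smallest complex, ranged between 3.38% and 6.42%.

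**Figure D2:**
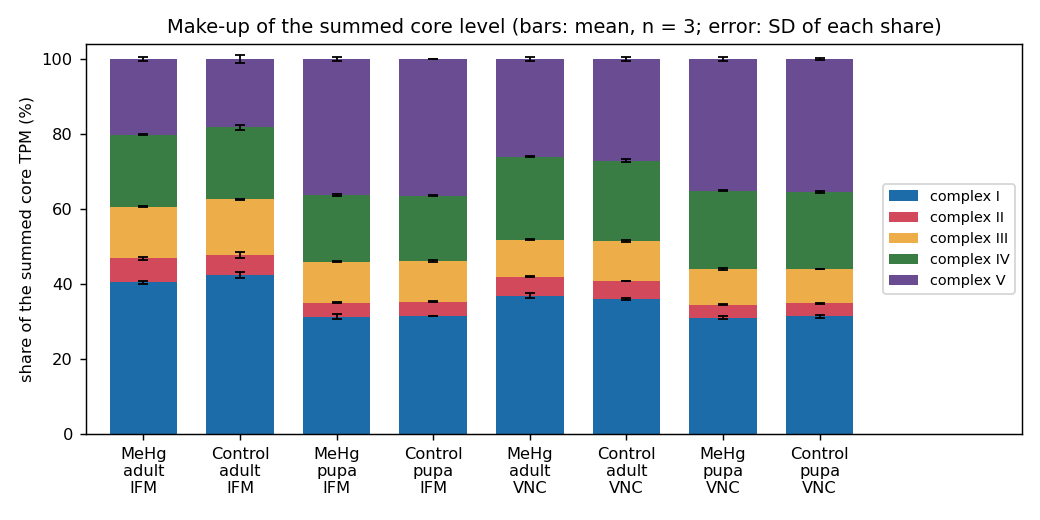
Share of each complex in the summed level of all core subunits (%, stacked; bars are means of 3 libraries and error bars SD) in the 8 groups. Complex V holds 36.3% and 36.5% in MeHg and control pupal IFM, and 20.2% and 18.3% in MeHg and control adult IFM.

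Within a complex, single core subunits differed in level widely, and only core subunits were ranked here. In control adult IFM the highest were ND-MLRQ, the fly homolog of NDUFA4 (named a complex I gene here, and assigned to complex IV in mammals), at 7501 ± 1077 TPM, and UQCR-14, a small complex III subunit homologous to UQCRB, at 6760.2 ± 1081 TPM. UQCR-14 lies wholly inside a gene on the opposite strand, CG32576, and its value is less certain because the sources used here do not give the strand setting of the counting. COX5A led complex IV at 4418 ± 627 TPM, ATPsynbeta, the catalytic subunit of ATP synthase, led complex V at 3169 ± 222 TPM, and SdhB, the iron-sulfur subunit, led complex II at 1817 ± 725 TPM. The lowest core subunits in the same muscles were COX7A at 142 ± 18.0 TPM and ND-AGGG, the homolog of NDUFB2, at 145 ± 17.3 TPM. In control pupal IFM the leader was ATPsynC, which forms the proton-carrying ring of ATP synthase, at 3976 ± 218 TPM.

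The first comparison asks what distinguishes mature from developing flight muscle: control adult IFM against control pupal IFM. Nearly all core subunits were higher in the adult muscle, by a median of 2.01 on the log2 scale, while the median of all genes was -0.04. The rise was uneven across complexes: core medians were 2.04 for complex I, 2.56 for II, 2.31 for III, 2.20 for IV and 1.27 for V. Summed levels in TPM were 4.26-fold, 4.53-fold, 4.28-fold and 3.49-fold higher for complexes I to IV, but 1.58-fold higher for complex V, and adult and pupal libraries were separate for every complex. In edgeR's quasi-likelihood test, with p-values adjusted by the Benjamini-Hochberg method across every gene tested (a gene passes at an adjusted p under 0.05, and ± after a log2 difference is the standard error), 61 of 63 core subunits rose and 2 fell. Over all 75 members tested, 64 rose and 5 fell, where 74.4% of all genes passed (37.7% higher and 36.7% lower), so a member that passed was common, while the members split 64 to 5 and all genes nearly evenly. The libraries of a group are pools of animals, and p-values measure the spread between these pools.

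ND-B8, the homolog of the complex I subunit NDUFA2, showed the largest difference of any member. It had 3339, 3093 and 4817 counts in the control adult IFM libraries, against 0, 3 and 3 counts in the control pupal ones, or 106, 117 and 155 CPM against 0, 0.163 and 0.0940 CPM. The transcript was all but undetected in pupal muscle, and the fitted log2 difference of 10.43 ± 0.40 rests on those few pupal counts (adjusted p = 1.91e-09). In MeHg animals it had 2936, 4985 and 3406 counts in adult IFM, against 2, 1 and 0 counts in pupal IFM. The VNC libraries held 0 to 29 counts each, so adult flight muscle held nearly all of its counts. ND-B8 lies on chromosome arm 2L at 4454626 to 4455207 on the plus strand (dm6), and 15.4% of its exonic bases overlap Gs1l.

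After ND-B8, a pair of complex I subunits of the NADH-binding arm rose most among the members. ND-51, homologous to the flavoprotein NDUFV1 that binds NADH, had 4591, 4241 and 5818 CPM in control adult IFM, against 278, 318 and 292 CPM in control pupal IFM (log2 difference 4.04 ± 0.15, adjusted p = 1.18e-09). Its partner ND-24, the homolog of NDUFV2, had 1603, 1375 and 1896 CPM in adults, against 136, 152 and 133 CPM in pupae (log2 3.53 ± 0.16, adjusted p = 3.56e-09). Adult and pupal libraries were far apart for both. ND-23, the homolog of the iron-sulfur subunit NDUFS8, rose by 3.49 and ND-MLRQ by 3.25. ND-75, the largest iron-sulfur subunit (NDUFS1), rose by 2.28, ND-42 (NDUFA10) by 0.90, ND-30 (NDUFS3) by 1.79 and ND-B16.6 (NDUFA13) by 2.13. The smallest rise among core subunits that passed was that of ND-ACP, the mitochondrial acyl carrier protein, at 0.28, and its adult and pupal ranges overlapped.

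The 4 subunits of complex II rose together. The flavoprotein SdhA rose by 2.53, SdhB by 2.59, and the membrane anchors SdhC and SdhD by 2.87 and 1.84. Sdhaf3, which protects SdhB during assembly, fell: it had 9.80, 10.4 and 9.89 CPM in control adult IFM, against 16.9, 16.62 and 17.5 CPM in control pupal IFM (log2 -0.76 ± 0.15, adjusted p = 0.000680). In complex III, the catalytic cytochrome c1 (Cyt-c1) rose by 2.19, the core proteins UQCR-C1 and UQCR-C2 by 1.34 and 2.31, UQCR-Q by 2.31 and UQCR-14 by 3.21. In complex IV, COX5B rose by 2.73, COX4 by 2.36, COX5A by 2.39, COX6B by 1.996, COX7C by 2.34 and COX8 by 1.71.

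The 2 core subunits that fell were COX7A and ATPsynC. COX7A, a small subunit at the dimer interface of complex IV, had 50.7, 69.0 and 54.3 CPM in control adult IFM, against 97.8, 105 and 87.6 CPM in control pupal IFM (log2 -0.74 ± 0.17, adjusted p = 0.00187). ATPsynC had 1786, 1838 and 1816 CPM in adults, against 3289.6, 3719.9 and 3272 CPM in pupae (log2 -0.92 ± 0.10, adjusted p = 7.00e-06). The groups did not overlap for either gene. The other 10 core subunits of complex V rose, ATPsynbeta by 0.92, ATPsyngamma (the rotor shaft) by 0.37, ATPsynO (the stator subunit OSCP) by 2.08 and ATPsynF by 1.24. ATPsynC was therefore the one core subunit of complex V to fall. It made up 3976 ± 218 TPM of the core sum of complex V in control pupal IFM, 12679.9 ± 483 TPM.

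**Figure D3:**
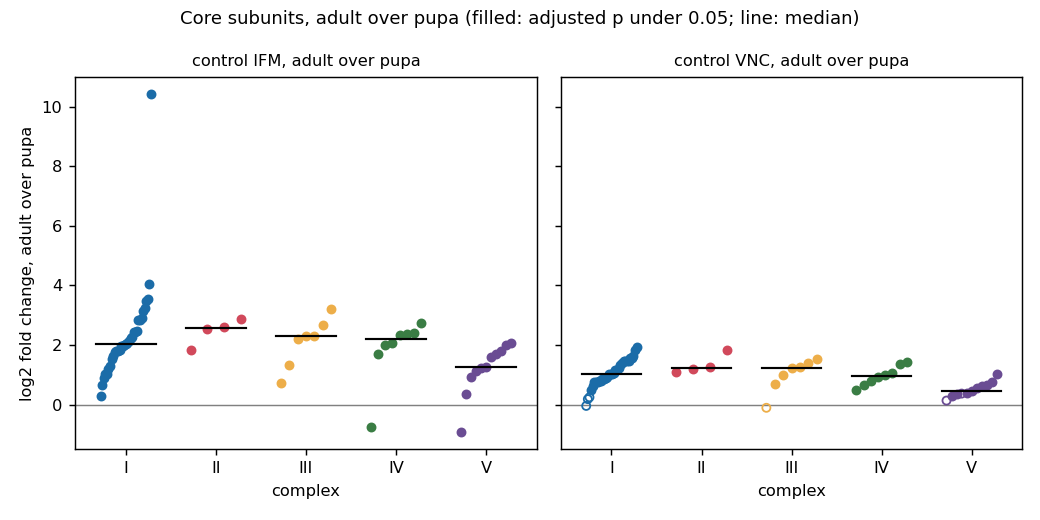
Log2 difference, adult over pupa, of each core subunit in control IFM (left) and control VNC (right), by complex, with filled points for an adjusted p under 0.05 and a line for the complex median. In IFM, COX7A and ATPsynC are the filled points below 0 and ND-B8 the highest point, while in VNC no filled point lies below 0.

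Other genes of mitochondrial energy metabolism were read from 3 lists. Of 20 further respiratory chain genes tested, 14 rose and 4 fell (median 1.82): the electron carrier Cyt-c-p rose by 4.58 ± 0.17, the aspartate/glutamate carrier aralar1 by 4.32 ± 0.28 and the complex III iron-sulfur protein RFeSP by 3.22 ± 0.17, while the outer membrane channel porin was lower (-1.13 ± 0.13) and so was the adenine nucleotide carrier Ant2 (-1.96 ± 0.32). Of 14 citric acid cycle and pyruvate dehydrogenase genes, 11 rose and 1 fell (median 1.15). Of 12 regulators of mitochondrial biogenesis, none rose and 8 fell (median -1.39), with the mitochondrial DNA helicase at -3.62 ± 0.17, the DNA polymerase subunit PolG1 at -1.95 ± 0.12 and srl, the fly PGC-1 homolog, at -1.75 ± 0.14. Adult IFM also carried RNA of other tissues: 5 gut markers summed to 559 to 7388 CPM in control adult IFM, against 0.121 to 2.53 CPM in control pupal IFM, and 8 fat body and yolk markers to 55921 to 68152 CPM, against 8802 to 17435 CPM. Glia markers (6 genes) summed to 1607 to 1712 CPM in adults, against 117 to 174 CPM in pupae. Testis markers summed to 482 to 586 CPM, against 268 to 299 CPM, and neuron markers to 445 to 639 CPM, against 1305 to 1521 CPM. Single markers did not always follow these sums: 16 of 17 testis markers tested were below 0 (median log2 -2.47). Above 0 were 9 of 13 neuron markers (median 0.54), 4 of 6 glia markers (median 0.58), 4 of 8 fat body and yolk markers and all 5 gut markers. The part of these markers in the stage differences was not tested.

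In the nerve cord the same stage comparison, control adult VNC against control pupal VNC, gave a smaller shift in the same direction. Of 62 core subunits tested, 56 rose and none fell, with a median of 0.98 on the log2 scale, while the median of all genes was 0.05. Complex V again had the lowest median, with core medians of 1.03, 1.22, 1.23, 0.95 and 0.47 for complexes I to V. Over all 78 members tested, 64 rose and 1 fell in edgeR's test, where 64.3% of all genes passed (31.7% higher and 32.6% lower). All 8 core subunits of complex IV and all 4 of complex II rose.

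Subunits of complex I led here too. ND-23 had 150.0, 134 and 154 CPM in control adult VNC, against 37.7, 37.3 and 39.9 CPM in control pupal VNC (log2 1.93 ± 0.08, adjusted p = 3.18e-09), and ND-51 had 323, 287 and 374 CPM, against 89.3, 90.6 and 97.6 CPM (log2 1.83 ± 0.16, adjusted p = 8.81e-07). Adult libraries were above pupal ones without overlap for both. ND-75 rose by 1.47, ND-42 by 0.85, ND-30 by 0.89, SdhA by 1.82, SdhB by 1.19, SdhC by 1.10, SdhD by 1.26 and Cyt-c1 by 1.51. In complex IV the rises of COX4, COX5A and COX5B were 1.38, 1.42 and 0.98, and in complex V those of ATPsynbeta and ATPsynC were 0.54 and 0.47. COX7A, which fell in muscle, rose by 0.66 ± 0.18 in the nerve cord. The 6 core subunits that did not pass included ND-B16.6 at 0.24, ND-AGGG at -0.05, UQCR-11 at -0.11, ATPsynE at 0.13 and ATPsyngamma at 0.37. ATPsyngamma passed without control adult VNC replicate 2 (0.45, adjusted p = 0.0373 in edgeR's test). Of the 3 lists, 17 of 20 further respiratory genes rose and 1 fell, 12 of 14 citric acid cycle genes rose and 1 fell, and 4 of 12 biogenesis regulators rose and 3 fell.

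Markers of cell types within and around the nerve cord also differed between the stages. Neuron markers summed to 29945 to 31819 CPM in control adult VNC, against 14081 to 15025 CPM in control pupal VNC, and glia markers to 2314 to 2443 CPM in adults, against 770 to 810 CPM in pupae. Gut markers summed to 254 to 501 CPM in adults, against 0.632 to 0.869 CPM in pupae, and testis markers to 769 to 1196 CPM, against 309.6 to 369 CPM. Fat body and yolk markers were lower, with 8349 to 9197 CPM in adults, against 16106 to 19343 CPM in pupae. The ranges were separate for these 5 lists. Flight muscle markers overlapped, with 818 to 1519 CPM in adults and 1017 to 1144 CPM in pupae, though 12 of 15 tested were above 0 (median log2 0.97). The part of all these markers in the stage differences was not tested.

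Between tissues, control IFM was set against control VNC at each stage. Core subunits were higher in muscle already at the pupal stage, with a median log2 difference of 2.05 (all genes -0.11), and by more in adults, with a median of 2.98 (all genes -0.13). Across genes the difference correlated with exonic length (Spearman -0.33 in pupae and -0.38 in adults). Genes of 600 to 1700 bases outside the list had medians of 0.23 in pupae and 0.55 in adults. In pupae 61 of 63 core subunits rose in IFM and none fell, and over 83 members tested 68 were higher and 3 lower, where 60.0% of all genes passed (25.9% higher and 34.1% lower). In adults 62 rose and COX7A fell, and over the 83 members 64 were higher and 6 lower, where 73.0% of all genes passed (35.0% higher and 38.0% lower). Complex sums in TPM were 2.65-fold, 2.80-fold, 3.17-fold, 2.21-fold and 2.70-fold higher in pupal IFM than in pupal VNC for complexes I to V, and 5.30-fold, 5.00-fold, 6.34-fold, 4.01-fold and 3.02-fold higher in adult IFM than in adult VNC. Total RNA composition differs between these tissues, and median-ratio size factors in place of TMM, which shift all genes alike, placed the core medians at 2.23 in pupae and 3.12 in adults. The 8 fat body and yolk markers summed to 55921 to 68152 CPM in control adult IFM, against 8349 to 9197 CPM in control adult VNC, and the gut markers to 559 to 7388 CPM, against 254 to 501 CPM. Their part in the adult differences was not tested.

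In pupae Cyt-c1 had the largest rise of any core subunit, with 494, 465 and 522 CPM in control pupal IFM, against 88.5, 89.7 and 90.0 CPM in control pupal VNC (log2 2.47 ± 0.12, adjusted p = 2.52e-13). The libraries of both tissues were well separated. The 2 core subunits that did not pass were COX7A (0.27 ± 0.17) and ND-B8 (1.57 ± 1.38). ND-B8 was near 0 counts in both tissues. UQCR-C1 was higher by 2.41, SdhA by 2.05, COX5A by 2.17, ATPsynO by 2.03 and ATPsynC by 2.23. In adults ND-B8 had 115, 129 and 169 CPM in control IFM, against 0.0801, 0.272 and 0.169 CPM in control VNC (log2 9.60 ± 0.51, adjusted p = 1.31e-12). ND-24 followed with 1741, 1511 and 2069 CPM in control adult IFM, against 72.0, 66.8 and 84.3 CPM in control adult VNC (log2 4.58 ± 0.17, adjusted p = 4.95e-15). UQCR-14 was higher by 4.29, ND-51 by 4.12, SdhB by 3.51 and ATPsynbeta by 2.27, and ATPsynC by 0.78. COX7A was the exception, with 55.0, 75.8 and 59.2 CPM in control adult IFM, against 147, 142 and 144 CPM in control adult VNC (log2 -1.19 ± 0.17, adjusted p = 3.31e-06).

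Whether maturation differed between the tissues was tested directly, as the stage difference in control IFM minus that in control VNC. For 49 of 63 core subunits the adult-over-pupa difference was greater in muscle, and for 2 it was smaller, with a median of 0.93 (all genes -0.08). Over 83 members 56 passed, 49 higher and 7 lower, where 53.0% of all genes passed (26.4% higher and 26.6% lower), and without control adult VNC replicate 2 the number was 50. ND-24 (2.46 ± 0.21, adjusted p = 8.56e-09) and ND-MLRQ (2.41 ± 0.30, adjusted p = 9.33e-07) showed the largest surplus in muscle among the members after ND-B8. ND-B8 had 8.03 ± 2.40 (adjusted p = 0.00836), again on few counts outside adult muscle. COX7A (-1.46 ± 0.24, adjusted p = 3.56e-05) and ATPsynC (-1.45 ± 0.13, adjusted p = 8.75e-09) were the 2 core subunits that passed below 0, and Sdhaf3 was at -1.45 ± 0.21 (adjusted p = 9.38e-06). Among paralogs COX7AL was at -4.03 ± 1.26, UQCR-11L at -1.10 ± 0.35 and COX5BL at -1.34 ± 0.47, the last not passing without control adult VNC replicate 2 (-1.01, adjusted p = 0.0844). In the list of biogenesis regulators 10 of 12 were lower and 1 higher, with a median of -1.79.

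Of the 24 paralogs, 13 reached a mean of 1 CPM in at least 1 group and 11 did not. Without control adult VNC replicate 2, the library with the most testis markers at 1 CPM, 12 did, a count made after the data were seen. COX7AL2 and SdhBL reached the highest levels, both of them in flight muscle. The other paralogs stayed below 10 CPM in every group mean, and several were best seen in the nerve cord.

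COX7AL2, a paralog of COX7A on 2L at 2192525 to 2197912 (minus strand, dm6), was the main COX7A-type transcript of adult flight muscle. Its level was 481, 584 and 504 TPM in MeHg adult IFM and 796, 886 and 1013 TPM in control adult IFM, and 168, 173 and 132 TPM in MeHg pupal IFM and 166, 194 and 198 TPM in control pupal IFM. In control adults all 3 libraries lay above those of the other groups. COX7A itself, on 3R at 8339944 to 8341043 (minus strand), was at 189, 136 and 228 TPM in MeHg adult IFM, 137, 162 and 127 TPM in control adult IFM, 293, 313 and 315 TPM in MeHg pupal IFM and 299, 319 and 285 TPM in control pupal IFM. Of the summed TPM of COX7A, COX7AL and COX7AL2, COX7AL2 made up 73.9 ± 6.36% in MeHg adult IFM, 86.2 ± 2.30% in control adult IFM, 33.8 ± 3.77% in MeHg pupal IFM and 38.1 ± 2.69% in control pupal IFM, and at most 0.601% as a group mean in VNC. Its stage difference in control IFM was 2.63 ± 0.16 (adjusted p = 4.91e-08), opposite in sign to that of COX7A. Against VNC it was higher by 8.80 ± 0.48 in control pupal IFM and by 8.81 ± 0.42 in control adult IFM. The 3 genes summed to 933, 1048 and 1140.1 TPM in control adult IFM, against 465, 516 and 484 TPM in control pupal IFM, so the summed level was higher in adults. In the nerve cord COX7A was at 602, 630.2 and 665 TPM in MeHg adults and 590.2, 595 and 593 TPM in control adults.

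SdhBL, the paralog of SdhB on X at 18894446 to 18896581 (plus strand), was a transcript of pupal flight muscle. It had 71.3, 54.7 and 54.1 TPM in MeHg pupal IFM and 43.0, 46.6 and 49.6 TPM in control pupal IFM, while in adult IFM no library exceeded 0.472 TPM. The pupal and adult libraries did not overlap, and the stage difference in control IFM was -7.58 ± 0.47 (adjusted p = 8.55e-08) while SdhB rose by 2.59. SdhBL made up 15.6 ± 0.849% of the SdhB pair in MeHg pupal IFM and 11.0 ± 0.640% in control pupal IFM. These ranges do not overlap, but the MeHg difference in SdhBL itself was 0.29 ± 0.31 and did not pass (adjusted p = 0.671). Against VNC, SdhBL was higher in control pupal IFM by 6.59 ± 1.24 (adjusted p = 0.000131). The interaction of stage and tissue was -9.28 ± 1.80, and this rests on control adult VNC replicate 2, which had 168 counts, against 0 and 2 in the other control adult VNC libraries: without it the value was -3.60 and did not pass (adjusted p = 0.461 in edgeR's test).

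SdhAL, the paralog of the flavoprotein SdhA, was a low transcript of the nerve cord. It made up 7.87 ± 1.18% of the SdhA pair in MeHg pupal VNC, 6.82 ± 1.18% in control pupal VNC, 1.42 ± 0.217% in MeHg adult VNC and 2.23 ± 0.393% in control adult VNC, and IFM was below VNC, with log2 differences of -4.57 ± 0.66 in control pupae and -5.41 ± 0.67 in control adults. ND-51L1, a paralog of the NADH-binding ND-51, made up 5.16 ± 1.00% of its family in MeHg pupal VNC and 5.52 ± 0.316% in control pupal VNC. In controls it was lower in IFM than in VNC (log2 -0.84 ± 0.30 in pupae and -1.81 ± 0.30 in adults). In MeHg adults its means were closer, 6.29 CPM in IFM and 7.35 CPM in VNC. Its highest library was MeHg adult IFM replicate 1, at 9.82 CPM. ND-51L2 was lower in control adult IFM than in control adult VNC (log2 -1.32 ± 0.37). ATPsynCF6L, a paralog of coupling factor 6, held 4.08% to 4.48% of its pair in the 4 VNC groups (3.32% in control adult VNC without replicate 2) and was lower in IFM (log2 -3.59 ± 0.89 in control pupae and -6.91 ± 1.12 in control adults). COX7AL, the other COX7A paralog, on 3R at 8343669 to 8344310 (plus strand), rose with stage in control VNC by 2.37 ± 0.36 and was lower in control adult IFM than in control adult VNC (log2 -4.53 ± 0.95).

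UQCR-11L, a paralog of the small complex III subunit UQCR-11, had its highest share in the adult nerve cord. It made up 20.9 ± 3.38% of the pair in MeHg adult VNC and 28.2 ± 1.40% in control adult VNC. The share was 9.40 ± 1.36% in MeHg pupal VNC and 9.33 ± 2.07% in control pupal VNC. Its stage difference was 1.82 ± 0.26 in control VNC (adjusted p = 7.56e-05) and 0.79 ± 0.22 in control IFM (adjusted p = 0.00616). In VNC, COX5BL rose with stage by 2.11 ± 0.34, ND-51L1 by 0.37 ± 0.14, ND-51L2 by 1.14 ± 0.30, COX7AL2 by 2.54 ± 0.75 and COX7CL by 1.38 ± 0.50, and ATPsynepsilonL, whose parent is sun, fell by 2.25 (-3.19 without control adult VNC replicate 2). COX7CL did not pass without control adult VNC replicate 2, where the value was 1.18 (adjusted p = 0.0605 in edgeR's test). ATPsynepsilonL also fell in control IFM (-2.20 ± 0.41), and COX5BL rose there (0.84 ± 0.32). COX5BL lies wholly opposite Trmt6, so its value is uncertain without the strand setting. COX4L averaged 1.4999 CPM in control adult VNC, where replicate 2 held 121 of its 169 counts. Without that library the mean was 0.605 CPM, below the 1.27 CPM of MeHg adult IFM. Reads shared between a paralog and its parent were not analysed here.

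**Figure D4:**
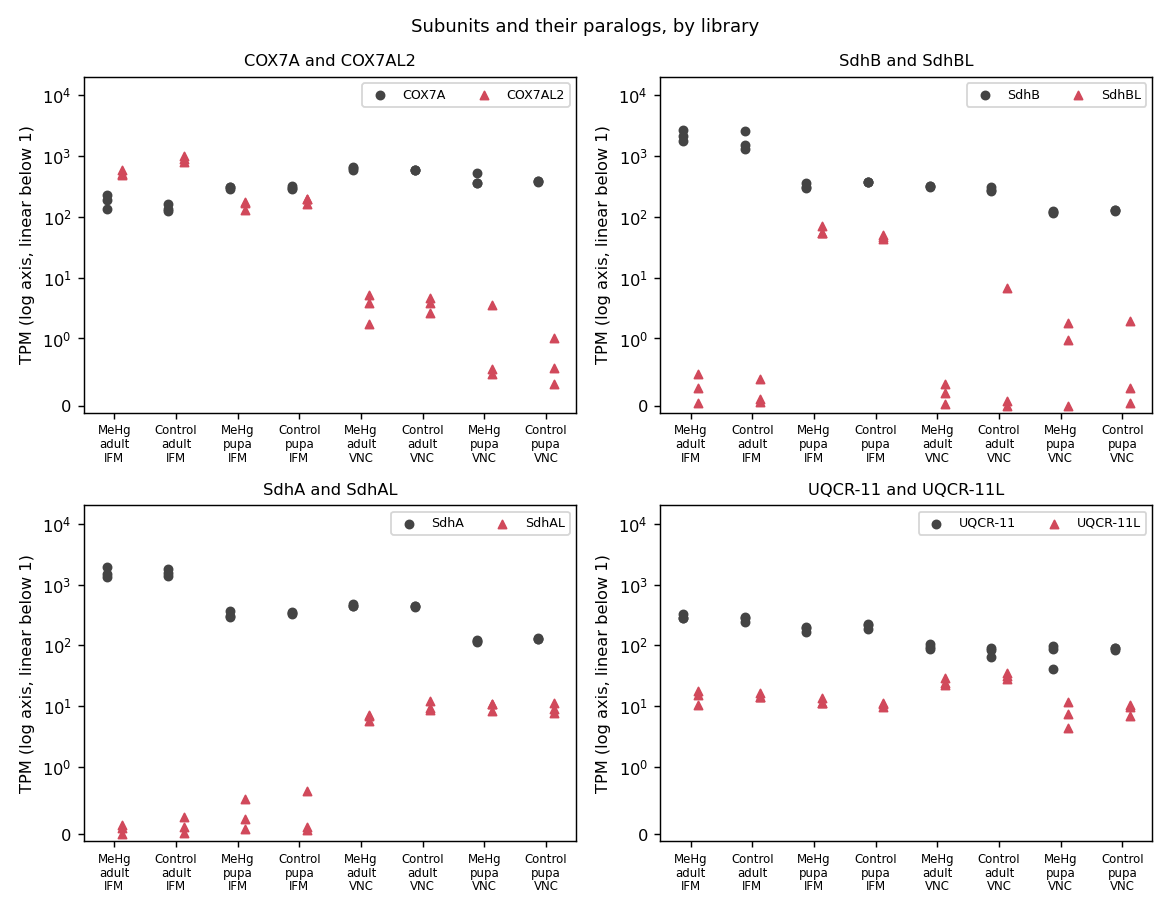
Level of COX7A and COX7AL2, SdhB and SdhBL, SdhA and SdhAL, and UQCR-11 and UQCR-11L in each library (TPM, log axis, linear below 1), by group. COX7AL2 exceeds COX7A in both adult IFM groups, and SdhBL is above 40 TPM in pupal IFM and near 0 in adult IFM.

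The 11 lowest paralogs followed single libraries. They summed to 447 counts in control adult VNC replicate 2, against 11 and 15 counts in the other 2 control adult VNC libraries, and 10 of the 11 had their highest value in that library. Elsewhere they summed to 108 counts in control pupal IFM replicate 2 (19 of 23 testis markers at 1 CPM), 83 in MeHg pupal VNC replicate 1 (12 markers), 76 in control pupal VNC replicate 2 (11 markers) and 73 in MeHg pupal IFM replicate 2 (16 markers). MeHg pupal VNC replicate 2 had 30 counts with 12 markers. The libraries with the most counts of these paralogs were thus among those with the most testis markers at 1 CPM, and whether the paralog reads came from the labelled tissue was not tested. Of the 23 testis markers, 7 had 0 counts in control adult VNC replicate 1, 0 in replicate 2 and 2 in replicate 3. Most were thus detected in all 3 control adult VNC libraries, though only 6 reached 1 CPM in replicates 1 and 3.

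The effect of MeHg was read in each tissue and stage. In adult flight muscle, in flies that had left MeHg food at eclosion, many subunits were lower in MeHg than in control flies, and none was higher past the test. In edgeR's test 20 of 75 members fell, where 7.60% of all genes passed (3.67% higher and 3.93% lower). Of the 63 core subunits 19 fell and 59 were below 0, with a median of -0.37 (all genes -0.01). The paralogs did not share this direction: of 11 tested, 8 were above 0 and 3 below, with a median of 0.33, and 1 fell. The highest member was ND-51L1 at 1.34 and the lowest ATPsynepsilonL at -1.69, and neither passed. Those that passed were 13 of 33 tested subunits in complex I, 2 of 7 in complex III, 2 of 8 in complex IV and 2 of 11 in complex V, while none of the 4 in complex II passed. Core medians were -0.44, -0.17, -0.38, -0.40 and -0.24 for complexes I to V.

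COX7AL2, the main COX7A-type transcript of this muscle, fell most among the members that passed, with 251, 285 and 239 CPM in MeHg adult IFM, against 398, 511 and 588 CPM in control adult IFM (log2 -0.95 ± 0.16, adjusted p = 0.00821). All MeHg libraries lay below all control libraries. COX7A itself was at 72.9, 49.2 and 79.6 CPM in MeHg and 50.7, 69.0 and 54.3 CPM in control libraries and did not pass (0.21 ± 0.17, adjusted p = 0.483). UQCR-14 had 1155, 1297 and 1055 CPM in MeHg adult IFM, against 1759.7, 1906 and 2569 CPM in control adult IFM (log2 -0.83 ± 0.15, adjusted p = 0.0130). ND-13B, the homolog of NDUFA5, had 331, 377 and 328 CPM in MeHg adult IFM, against 522, 553 and 742 CPM in control adult IFM (log2 -0.81 ± 0.14, adjusted p = 0.00986). The groups did not overlap for either gene.

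In complex I the other 12 that fell belong to several parts of the complex. Among them were ND-51 (-0.53) and ND-24 (-0.57), the iron-sulfur proteins ND-23 (-0.52) and ND-20 (-0.71) and the accessory subunits ND-B17.2 (-0.73), ND-B14.5A (-0.73), ND-B14 (-0.64), ND-13A (-0.51), ND-B14.7 (-0.50), ND-B16.6 (-0.52) and ND-MLRQ (-0.54). UQCR-6.4 fell by 0.64 in complex III, COX7C by 0.66 and COX5B by 0.55 in complex IV, and ATPsynG by 0.73 and ATPsyndelta by 0.54 in complex V. The ranges of MeHg and control libraries were separate for each of the 20, a property of 27.1% of all genes tested. Not passing were ND-75 (-0.22 ± 0.13), ND-42 (-0.26 ± 0.10), ND-30 (-0.31 ± 0.14), SdhA (-0.13 ± 0.13), SdhB (0.15 ± 0.19), SdhC (-0.51 ± 0.16), SdhD (-0.21 ± 0.14), Cyt-c1 (-0.32 ± 0.13), UQCR-C1 (-0.01 ± 0.12), UQCR-C2 (-0.38 ± 0.16), COX4 (-0.50 ± 0.16), COX5A (-0.43 ± 0.14), ATPsynbeta (-0.18 ± 0.11) and ATPsynC (0.14 ± 0.10). The same holds for UQCR-Q (-0.41 ± 0.15), COX6B (-0.37 ± 0.13), COX8 (-0.27 ± 0.16), ATPsyngamma (-0.19 ± 0.13), ATPsynO (-0.47 ± 0.14) and ATPsynF (-0.19 ± 0.14).

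Summed levels in TPM were 0.798 of the control level for complex I, 1.00 for II, 0.778 for III, 0.843 for IV and 0.927 for V, and for these sums MeHg and control libraries overlapped. Of the 20 further respiratory chain genes 5 fell, namely sun (-0.53 ± 0.12), Scox (-0.51 ± 0.13), cype (-0.64 ± 0.13), Cyt-c-p (-0.61 ± 0.14) and Surf1 (-0.65 ± 0.16), with a list median of -0.32. Of the 14 citric acid cycle genes none passed (median 0.00), and of the 12 biogenesis regulators srl fell (-0.54 ± 0.14), with a median of -0.06.

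Markers of other tissues moved alongside. The 8 fat body and yolk markers summed to 22802 to 42376 CPM in MeHg adult IFM, against 55921 to 68152 CPM in control adult IFM, and the 5 gut markers to 12907, 6576 and 7638 CPM in MeHg, against 3760, 7388 and 559 CPM in control libraries. Glia markers summed to 1233 to 1458 CPM in MeHg adult IFM, against 1607 to 1712 CPM in control adult IFM, and testis markers to 400.1 to 480.3 CPM, against 482 to 586 CPM. Most single testis markers went against that lower sum, with 13 of 17 tested above 0 (median log2 0.30). Neuron markers overlapped, with 380 to 496 CPM in MeHg and 445 to 639 CPM in control libraries. The 15 flight muscle markers summed to 58844 to 74250 CPM in MeHg and 78481 to 103971 CPM in control libraries, and the share of counts on mitochondrial genome genes was 5.45%, 4.22% and 4.20% in MeHg and 6.20%, 8.08% and 5.20% in control libraries. Their part in the lower values was not tested. The number that fell depended on single libraries: it was 2 without MeHg replicate 4, 7 without MeHg replicate 1 and 10 without control replicate 3. With the tag that the library titles carry, whose meaning the labels do not give, as a batch term, none passed. MeHg replicate 4 carries a tag that no other adult IFM library has, so that term takes it out of the comparison.

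**Figure D5:**
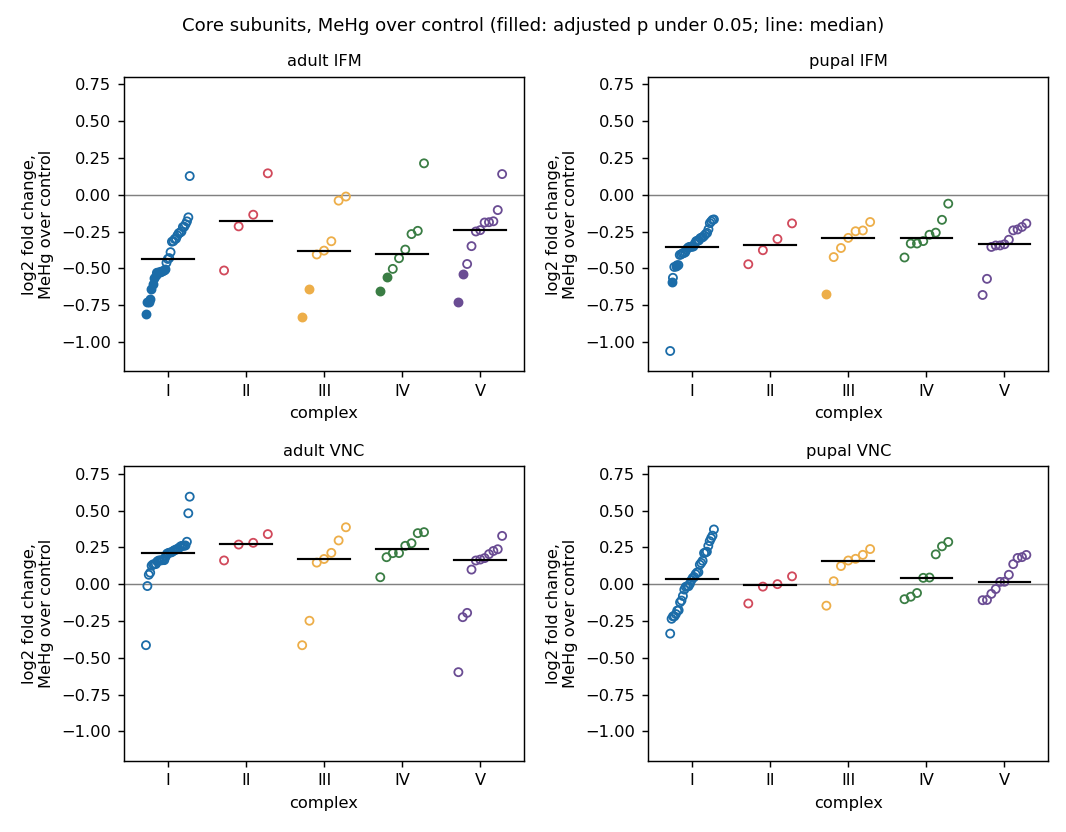
Log2 difference, MeHg over control, of each core subunit in adult IFM, pupal IFM, adult VNC and pupal VNC, by complex, with filled points for an adjusted p under 0.05 and a line for the complex median. In adult IFM 19 filled points and in pupal IFM 3 lie below 0, and neither VNC panel has a filled point.

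In pupal flight muscle, 4 members fell and none rose, where 3.01% of all genes passed (0.917% higher and 2.09% lower). They are 2 subunits of complex I, a subunit of complex III and the complex II assembly factor. Sdhaf3 had 10.6, 9.79 and 8.16 CPM in MeHg pupal IFM, against 16.9, 16.62 and 17.5 CPM in control pupal IFM (log2 -0.84 ± 0.15, adjusted p = 0.0141). UQCR-Q, a small complex III subunit, had 103, 98.5 and 97.3 CPM in MeHg pupal IFM, against 160.4, 199 and 118 CPM in control pupal IFM (log2 -0.68 ± 0.15, adjusted p = 0.0387). The MeHg libraries were close together and lay below the control libraries for both. ND-30, the homolog of NDUFS3, had 87.2, 79.9 and 77.1 CPM in MeHg pupal IFM, against 138, 137 and 93.6 CPM in control pupal IFM (log2 -0.59 ± 0.14, adjusted p = 0.0425). ND-B16.6 had 103.7, 92.96 and 92.98 CPM in MeHg pupal IFM, against 139.9, 148 and 117 CPM in control pupal IFM (log2 -0.48 ± 0.10, adjusted p = 0.0310). For both the groups were separate, a property of 28.7% of all genes tested. ND-B16.6 passed in adult IFM as well.

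Nearly all members that did not pass also had values below 0. All 63 core subunits were below 0, with a median of -0.33 (all genes 0.00) and core medians of -0.35, -0.34, -0.29, -0.29 and -0.34 for complexes I to V. Summed levels in TPM were 0.845, 0.847, 0.845, 0.872 and 0.847 of the control level, with MeHg and control libraries separate for every complex. The core sum was 31609, 29531 and 27534 TPM in MeHg, against 33944, 36258 and 34103 TPM in control libraries. A gene-length trend moved with this: across 7112 genes the MeHg difference correlated with exonic length (Spearman 0.47, a description over genes that share libraries), and members are short, with a median of 842 bases against 1431 for all genes. Genes outside the list of 600 to 1700 bases had a median of -0.15. With the trend removed the core median was -0.11, 55 of 63 lay below 0 and none passed. Single core subunits ran between -1.06 (ND-B8, near 0 counts) and -0.06 (COX7A), with SdhC at -0.47, COX8 at -0.43 and ATPsynE at -0.68. The count of 4 rested on single libraries, being 0 without MeHg replicate 3, 1 without MeHg replicate 1 or 2 or without control replicate 1 or 2, and 6 without control replicate 3, and it was 1 with the title tag as a batch term.

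Of the 20 further respiratory chain genes none passed in pupal IFM (median -0.27). In the citric acid cycle list kdn, the citrate synthase, fell (-0.96 ± 0.17, adjusted p = 0.0137 in edgeR's test) and the median was -0.25, and among biogenesis regulators PolG1 fell (-0.60 ± 0.11). Fat body and yolk markers summed to 11684 to 20710 CPM in MeHg and 8802 to 17435 CPM in control pupal IFM, and flight muscle markers to 75243 to 96620 CPM in MeHg and 79373 to 92509 CPM in control pupal IFM, so the ranges overlapped for both lists. Neuron markers were separate, with 1618 to 1772 CPM in MeHg pupal IFM, against 1305 to 1521 CPM in control pupal IFM. So were the sums of testis markers, with 338 to 370 CPM, against 268 to 299 CPM. Most single testis markers went against that sum, with 14 of 17 tested below 0 (median log2 -0.57). Of 13 neuron markers, 11 were above 0. The share of counts on mitochondrial genome genes was 1.39%, 1.51% and 1.42% in MeHg libraries, against 2.93%, 2.50% and 1.80% in control libraries. Glia markers overlapped (133 to 175 CPM in MeHg and 117 to 174 CPM in control libraries), and gut markers stayed below 4 CPM. The part of these in the lower values was not tested.

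In the nerve cord no member passed at either stage. In adult VNC, where 0.0674% of all genes passed, 55 of 62 core subunits were above 0 (median 0.21, all genes 0.05), 23 of 78 members had an unadjusted p under 0.05 (13.6% of all genes did), and DESeq2 called 4, of which 3 were higher and 1 lower (2.36% of all genes). Of all genes, 58.7% were above 0. A gene-length trend was present here too: across 7635 genes the MeHg difference correlated with exonic length (Spearman -0.24). Genes of 600 to 1700 bases outside the list had a median of 0.12. Without control adult VNC replicate 2 the core median was also 0.12. Of the paralogs tested, 12 of 15 lay below 0, but 7 did without control adult VNC replicate 2. The testis markers also lay below 0 with all libraries in, 17 of 19 tested, with a median of -3.42. In control adult VNC replicate 2, 20 of 23 such markers reached 1 CPM, against 6 in every other adult VNC library. Their sums overlapped, with 909 to 1009 CPM in MeHg and 769 to 1196 CPM in control libraries. SdhAL was at -0.50 ± 0.19 (adjusted p = 0.329). The share of counts on mitochondrial genome genes was 0.884%, 0.864% and 0.784% in MeHg adult VNC, against 1.06%, 1.46% and 0.943% in control adult VNC, and its part in these values was not tested. In pupal VNC, where 0.531% of all genes passed, the core median was 0.04, 38 of 62 lay above 0, 3 members had an unadjusted p under 0.05 (8.80% of all genes did) and DESeq2 called none (1.91% of all genes). ND-75 was at 0.13 ± 0.11 in adult VNC and 0.08 ± 0.11 in pupal VNC, SdhA at 0.16 ± 0.08 and -0.02 ± 0.08, Cyt-c1 at 0.30 ± 0.08 and 0.02 ± 0.08, COX4 at 0.21 ± 0.20 and 0.29 ± 0.21, and ATPsynbeta at 0.18 ± 0.08 and -0.07 ± 0.08.

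Tests of whether the MeHg effect itself differed gave no member past the threshold. Between adult and pupal IFM, where 2.69% of all genes passed, 7 members had an unadjusted p under 0.05 (19.7% of all genes did) and DESeq2 called 2 (8.93% of all genes). Sdhaf3, which fell in pupal IFM, had 0.80 ± 0.21 (adjusted p = 0.0760), ATPsynC 0.49 ± 0.14 (adjusted p = 0.101) and COX7AL2 -0.63 ± 0.22 (adjusted p = 0.143), all from edgeR's test. Between pupal IFM and pupal VNC, where 0.245% passed, 60 of 63 core subunits were below 0 (median -0.32), 22 members had an unadjusted p under 0.05 (11.2% of all genes did) and DESeq2 called 1 (2.05% of all genes). The difference between IFM and VNC in the effect of MeHg in adults was not tested.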

How the data were processed

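Total RNA from 24 libraries was sequenced by the authors, who deposited whole-number read counts per gene for each library. Per the submitters' processing notes, the tools were bcl2fastq 2.19.0, STAR 2.7.6a and featureCounts from Subread 2.0.1, with the dm6 genome. The strand setting of the counting is not given in the sources used here. Members overlapping another gene (37 of 89, 32 of them on the opposite strand) are therefore less certain.

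From the counts, edgeR 4.0.16 in R 4.3.3 (TMM scaling, filterByExpr, robust quasi-likelihood F test) was fitted over the 12 libraries of a tissue (11347 genes in IFM, 11870 in VNC) for stage and MeHg comparisons, and over all 24 libraries (12631 genes) for tissue comparisons and the interactions with tissue. P-values were adjusted by the Benjamini-Hochberg method over all genes tested. Of the members, 75, 78 and 83 passed the filter on low counts. CPM values follow the scaling of the fit they stand beside, and marker sums that of the 24 libraries. TPM was computed from counts and exonic lengths, which were found for 99.63% of genes. DESeq2 1.42.0, other scaling, no filter, an offset for gene length, the title tag, the replicate number and leaving out each library were alternatives, and 2 counts of paralogs without control adult VNC replicate 2 were added after the data were seen. The fits were tested on simulated data.

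Genes named singly were, apart from results not reported here, those that passed in a MeHg comparison, the 3 largest rises and falls per stage or tissue comparison among members that passed with separate ranges and at least 5 CPM, paralogs reaching 1 CPM, and a standing list of subunits. Other named values were picked after they were seen. Members and lists were chosen with earlier results of these data known. Sequences and paralog identity were not analysed here.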

Additional observations from a re-analysis of the deposited data

Results flagged for a closer look

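The difference between tissues in the effect of stage was itself tested, and its direction among the members stands out more than the number that passed. The adult-over-pupa difference in control IFM minus that in control VNC passed for 56 of 83 members, 49 higher and 7 lower. In edgeR's test 53.0% of all genes passed, 26.4% higher and 26.6% lower. Without control adult VNC replicate 2 the number of members was 50. In MeHg animals, in place of controls, 45 members passed, a number that cannot be weighed because the share of all genes there is not given here. Among single members, the difference was 8.03 for ND-B8, 2.46 for ND-24 and 2.41 for ND-MLRQ on the log2 scale, so the adult surplus was greater in muscle. It was -1.46 for COX7A and -1.45 for Sdhaf3, which fell with stage in muscle, and -9.28 for SdhBL, a value that did not pass without control adult VNC replicate 2 (-3.60, adjusted p = 0.461 in edgeR's test). ND-B8 had at most 3 counts in each control pupal library.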

How the results depend on the processing

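The number of members that passed in the MeHg comparison of pupal IFM was 4, and it was 2 with no low-count filter, 11 by DESeq2, 0 with the length trend removed, 0 with the replicate number as a block and 1 with the title tag as a term, and 0 to 6 when leaving out 1 library. In adult IFM it was 20, and it was 7 (1 higher and 6 lower) with the replicate block, 0 with the title tag, 1 in a fit of only the libraries compared and 2 to 22 when leaving out 1 library. DESeq2 called 4 members in adult VNC, 2 for MeHg by stage and 1 for MeHg by tissue, where edgeR's test called 0. Leaving out 1 library gave 66 to 69 for stage in IFM, 59 to 64 for stage in VNC, 68 to 72 and 69 to 72 for tissue in pupae and adults, 50 to 61 for stage by tissue, and 0 for the other comparisons. The replicate block gave 68, 63, 69, 69 and 55 for these 5 in the same order, and 0 for the other comparisons. Same-numbered libraries deviated together (correlation over 0.1) in 4 of 10 treatment pairs, 8 of 12 tissue pairs and 3 of 6 stage pairs, and in no comparison reported here did every pair do so with 3 or more pairs, so the numbers were not taken as pairs. Between IFM and VNC of MeHg animals every same-numbered pair did, with 0.165 to 0.365 in pupae and 0.104 to 0.272 in adults.

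With TMM-scaled CPM in place of TPM, which gives no share of the reads because TMM rescales the library totals, the core sum as a percentage of 1e6 was 5.25% in MeHg adult IFM, 7.02% in control adult IFM, 1.69% in MeHg pupal IFM, 2.04% in control pupal IFM, 1.02% in MeHg adult VNC, 0.949% in control adult VNC, 0.501% in MeHg pupal VNC and 0.493% in control pupal VNC. Leaving out 1 library gave 8.54% to 9.77%, 10.4% to 11.6%, 2.85% to 3.06%, 3.40% to 3.52%, 2.47% to 2.60%, 2.40% to 2.47%, 1.23% to 1.30% and 1.32% to 1.33% in the same order per length. In MeHg animals in place of controls, the stage effect in IFM was 0.0393 for Sdhaf3, the stage effect in VNC -0.59 for SdhAL, the tissue effect in adults 1.52 for COX7CL and the stage by tissue interaction 0.29 for COX5BL. With the length trend removed the tissue effect in pupae was -0.38 for COX7A. These 5 changed sign, and the causes were not tested. Over single members and alternatives other than leaving out a library, 2717 values kept direction and side of the threshold, 103 no longer passed and 37 newly passed, leaving out values with no adjusted p from DESeq2. The 3 libraries of a group limit what a missed threshold can show, and low paralogs rest on few counts.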
